A study of Mus musculus with 2 samples.

Results

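The malate-aspartate and glycerol phosphate shuttles carry reducing equivalents of cytosolic NADH into mitochondria, and their 10 genes were followed here in mouse leukaemia cells sorted by a sensor of NADH. The genes were taken by symbol: Mdh1, Mdh2, Got1, Got2, Slc25a11, Slc25a12 and Slc25a13 for the malate-aspartate shuttle (7 genes), and Gpd1, Gpd1l and Gpd2 for the glycerol phosphate shuttle (3 genes). Each had 1 probe on the array, found through its RefSeq accession, so 10 of the 20618 genes with a symbol on the array are described, and background was clearly exceeded by all 10 probes on both arrays (the software's call of well above background). The study compared a SoNar-high with a SoNar-low population of B-ALL (B-cell acute lymphoblastic leukaemia) cells. SoNar is a fluorescent protein sensor whose ratio of emission under violet to that under blue light goes up with the NADH/NAD+ ratio of the cytosol. Both populations came from bone marrow of mice labelled as 8 weeks of age, and each gave total RNA for 1 one-colour Agilent array. The strain, the way the leukaemia was made and the number of mice are not given in the sources used here, and the sample titles say N-myc-high and N-myc-low in place of the sensor's name. Mycn was not detected above background by its probe, at 12.3 intensity units with SoNar-high and 4.70 with SoNar-low cells, so the titles could not be checked against that gene. With 1 array per population there is no replicate and no test, every difference is between these arrays, and fewer cells of a type cannot be told apart from less RNA per cell.

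NADH made in glycolysis cannot cross the inner mitochondrial membrane, so the electrons travel on carrier molecules. In the malate-aspartate shuttle, cytosolic malate dehydrogenase uses NADH to reduce oxaloacetate to malate, malate enters in exchange for 2-oxoglutarate, and mitochondrial malate dehydrogenase gives the NADH back inside; aspartate aminotransferases on both sides and an aspartate-glutamate exchanger return the carbon. In the glycerol phosphate shuttle, a cytosolic dehydrogenase reduces dihydroxyacetone phosphate to glycerol 3-phosphate, and a flavoprotein on the outer face of the inner membrane oxidises it and passes the electrons to ubiquinone. Lactate dehydrogenase is the other main cytosolic consumer of that NADH, and in proliferating cells the aspartate exported by the shuttle also feeds nucleotide synthesis.

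Values below are the scanner's processed signal in intensity units, and differences are log2 SoNar-high minus log2 SoNar-low after each array was divided by the 75th percentile of its probes (409 units with SoNar-high and 470 with SoNar-low cells), which adds 0.20 to every unscaled log2 ratio. The SoNar-high array had 44.8% and the SoNar-low array 72.9% of its 43020 non-control spots well above background. The lowest signal so called was 46.4 units with SoNar-high and 19.7 with SoNar-low cells, so a probe between these levels could be detected on the SoNar-low array alone without a difference in signal. Each array was scanned in its own session, so session and population cannot be told apart. The error of a single spot estimated by the scanner software lay at 10% to 11.7% of the signal for the shuttle probes, nearly a fixed share of it, and gave an error of 0.20 to 0.23 on each difference. As a second measure, 167 probes printed as 10 spots were taken. Their mean signal on the SoNar-high array was at or above the dimmest shuttle signal (144.5 units, Gpd1 on the SoNar-low array). They had a median SD of 0.14 between spots for the difference, and a 95th percentile of 0.40. Neither error holds the spread between mice or sorts. Of the B-lineage markers 11 of 16 were measured on both arrays, with a median difference of 0.31 and 9 of the 11 above 0. Over all 10521 genes measured on both arrays the median was 0.22 and 7039 were above 0. That median was exceeded by 6 of the 11 markers. Cd79a was at 440.0 and 379 units (SoNar-high first), while Cd22 ran the other way and past 2-fold (1252 and 3093 units, -1.10). Vpreb2 was detected on the SoNar-low array only (35.3 and 88.2 units), and Igll1, Rag1, Rag2 and Il7r on neither. Under the main scaling, markers of neurons and glia were higher on the SoNar-high array, with 11 of 15 measured, a median of 1.16, 6 at least 2-fold higher, 1 at least 2-fold lower, and a summed signal of 7.74 and 5.99 times the 75th percentile. Of the 6, Rtn1, Cck, Cpe and Mobp had 31.5, 31.9, 26.3 and 28.7 units on the SoNar-low array. These lie under the lowest signal called on the SoNar-high array, so only a higher signal there let them count as measured. The other probes of Cpe (0.35 and -0.39) and Mobp (0.28 and -1.15) did not pass that filter. Syt1 was detected on the SoNar-high array only, Gfap on the SoNar-low array only (51.5 and 124.5 units at its brightest probe), and Stmn2 and Slc1a2 on neither. Neutrophil markers were lower (9 of 10 measured, median -0.64, sums 43.9 and 52.8), as were the few measured markers of monocytes and macrophages (4, median -0.70), T and NK cells (2, -1.43), erythroid cells (3, -1.61) and lung (3, -1.87), while muscle, liver and fat had 1, 1 and 0 measured. Of the 9 neutrophil markers 1 was above 0 (0.21), and of the 4 of monocytes and macrophages 1 was (0.62), each the brightest gene of its list. The summed signal of the erythroid list was 56.3 and 31.9 and that of the lung list 19.6 and 18.1, each carried by 1 bright gene. Without Hemgn the erythroid sums were 0.60 and 1.76, and without Lamp3 the lung sums were 0.393 and 4.02. Another 5 lung markers were detected on the SoNar-low array only, among them the surfactant genes Sftpa1 (20.1 and 393 units) and Sftpc (20.3 and 314 units). The part of these cell types in the differences below was not tested.

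Of the 10 shuttle genes 1, Got1, was at least 2-fold higher on the SoNar-high array and 0 were at least 2-fold lower. Among the 10521 genes measured on both arrays 253 were that much higher (2.4%) and 462 that much lower (4.39%), so the count of 1 cannot be told from that background. Of all genes past 2-fold 35.4% were higher on the SoNar-high array, a share that was 96.0% with arrays scaled to their medians and 6.67% with the 75th percentile taken over probes detected on both. Of the 10521 measured genes 7039 had a difference above 0. The 10 shuttle differences ran from -0.19 to 1.04, with 8 above 0. Their median was 0.44, against 0.22 over all measured genes, and 6 of the 10 stood above that median gene. Brighter genes were in general higher on the SoNar-high array: over the brighter 50% of measured probes the median gene stood at 0.39, and the 8 shuttle genes among them had a median of 0.36. Gaps between members, given below, do not depend on a constant scaling of an array.

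**Figure D1:**
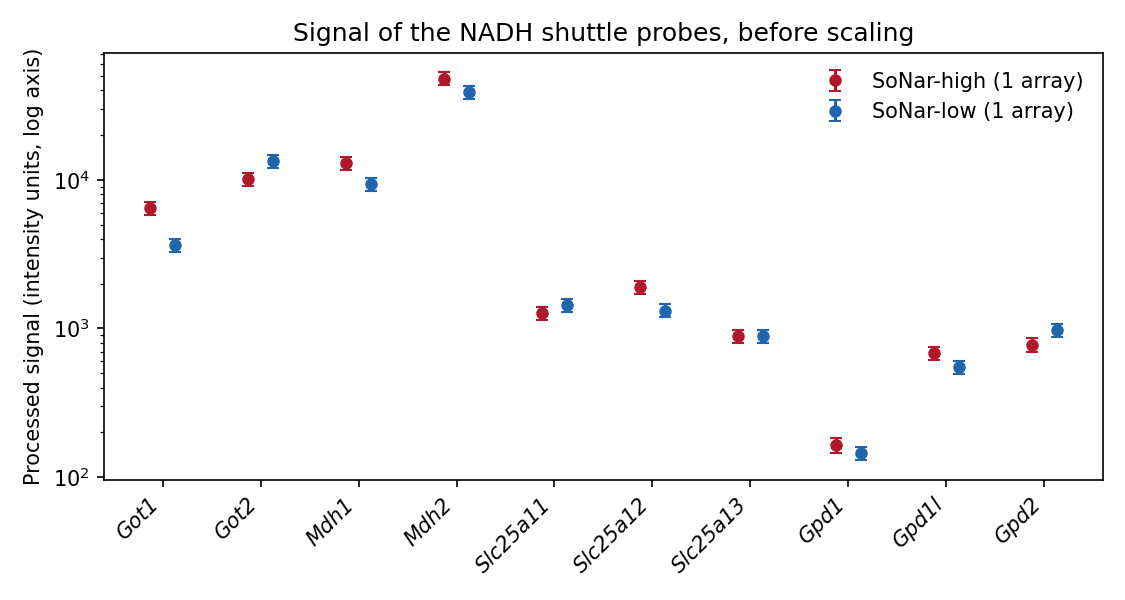
Processed signal of the single probe of each shuttle gene (vertical log axis, intensity units) on the SoNar-high array (red) and the SoNar-low array (blue), 1 array each, before scaling; bars are the scanner software's error of the spot. Got1 shows the widest gap, at 6468 and 3629 units, and Got2, Gpd2 and Slc25a11 lie lower on the SoNar-high array; heights of different probes are not comparable.

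The aspartate aminotransferases lay at the ends of the range. Got1 encodes the cytosolic enzyme, which turns aspartate and 2-oxoglutarate into oxaloacetate and glutamate and so supplies the oxaloacetate that cytosolic malate dehydrogenase reduces. Its signal was 6468 ± 647 units on the SoNar-high array and 3629 ± 363 on the SoNar-low array (software error of 1 spot). After scaling it was 2.05-fold higher on the SoNar-high array, a difference of 1.04 ± 0.20. This was the highest of the 10, and 199 of the 10521 measured genes (1.89%) had a difference at least as high. It lay just past the 2-fold limit. Of 13 other ways of processing 4 bear only on the choice of probes and could not move a gene with 1 bright probe; of the other 9, 3 kept it past the limit and 6 did not. Over these 9 the difference ran from 0.68, with loess on the level, to 1.60, with scaling to array medians. The authors' series matrix gave 0.71. Got2 encodes the mitochondrial aminotransferase that makes the aspartate for export. It gave 10174 ± 1017 units with SoNar-high and 13343 ± 1334 with SoNar-low cells, so the SoNar-low array was the brighter before scaling. The scaled difference of -0.19 ± 0.20 did not exceed the software error, and it turned to 0.38 when the arrays were scaled to their medians. Got1 and Got2 thus differed from each other by 1.22 ± 0.28, a 2.34-fold shift of their ratio between the arrays. For a gap between a pair of such differences, an SD was computed as the square root of 2 times the spot SD of 1 difference. It was 0.20 from the median spot SD and 0.57 from its 95th percentile, and was not measured on pairs of probes. In the 5 alternatives that do more than shift a whole array the gap ran from 1.02 to 1.28. Probe sequences were not used here, so binding of a probe to the transcript of a related gene could not be checked for Got1 and Got2, nor for Slc25a12 and Slc25a13 or Gpd1 and Gpd1l.

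The upstream windows of these isoenzyme genes are shown because they are the members furthest apart. Each is the 250 bases before the RefSeq gene start in GRCm38.p6, on the minus strand, 5′ to 3′, with CCAAT boxes in either direction (CCAAT or ATTGG) in capitals.
Got1, chr19:43524606-43524855: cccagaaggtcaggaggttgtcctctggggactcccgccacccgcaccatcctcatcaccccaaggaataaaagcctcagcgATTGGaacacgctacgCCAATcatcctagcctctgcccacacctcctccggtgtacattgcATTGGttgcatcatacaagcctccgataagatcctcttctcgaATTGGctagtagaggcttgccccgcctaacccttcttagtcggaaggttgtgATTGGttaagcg
Got2, chr8:95888402-95888651: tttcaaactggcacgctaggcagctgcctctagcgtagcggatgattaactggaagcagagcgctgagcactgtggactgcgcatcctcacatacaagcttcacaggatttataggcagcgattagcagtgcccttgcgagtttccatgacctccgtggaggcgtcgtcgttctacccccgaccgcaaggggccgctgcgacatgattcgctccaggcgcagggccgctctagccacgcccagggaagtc
The Got1 window held 5 CCAAT boxes, the motif that the factor NF-Y binds, at 168, 152, 107, 64 and 12 bases before the start (first base of the match), and the Got2 window held 0. At least 1 CCAAT box is found in 33.8% of the 32851 windows of this length in the table, and 5 or more in 70 of them (0.213%). That limit of 5 is the Got1 count itself, the most in any shuttle window, so the share is no test. A total of 9 motifs were searched, and the CCAAT box and the 3 others described were picked after the matches were seen. Windows were found for 9 of the 10 genes, with 2 starts for Gpd2, and 5 of these 10 windows held a CCAAT box. The E-box CACGTG, searched because MYC family factors bind it and the titles name N-myc, stood in the windows of Slc25a13 and Gpd1l, 1 time each, against 6.02% of all windows. The cAMP response element TGACGTCA stood in that of Mdh2, against 1.55%. The GC box GGGCGG, read on both strands, was in 4 of the 10 windows and in 32.7% of all. Of the other 5, also read on both strands, ACGTG (inside the E-box) was in 4 of the 10 windows and 16.6% of all, TGACG (inside the cAMP response element) in 2 and 17.8%, and the ETS motif CCGGAAGT in 0 and 2.88%. The NRF1 motif was in 0 and 3.74% with any middle base, and in 0 and 0.782% with T there. The E-boxes and the cAMP response element are given with their flanks, the match in capitals.
Slc25a13 E-box, chr6:6217282-6217309, minus strand: acagtctgagtCACGTGtcctggcccct
Gpd1l E-box, chr9:114934098-114934125, minus strand: acattggcctgCACGTGgcccgcctgga
Mdh2 cAMP response element, chr5:135778511-135778540, plus strand: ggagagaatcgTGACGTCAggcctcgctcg
The differences between the arrays were 0.21 for Slc25a13, 0.51 for Gpd1l and 0.51 for Mdh2. A match is one of letters, not a binding site.

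The malate dehydrogenases were both higher on the SoNar-high array. Mdh1, the cytosolic enzyme that oxidises NADH while reducing oxaloacetate, gave 12911 ± 1291 units with SoNar-high and 9338 ± 934 with SoNar-low cells. Its difference of 0.67 ± 0.20, a 1.59-fold excess on the SoNar-high array, was more than 3 times the software error. Mdh2, the mitochondrial enzyme that also closes the citric acid cycle, gave 48124 ± 4812 and 38769 ± 3877 units in the same order. Its difference was 0.51 ± 0.20, or 1.43-fold. Mdh1 exceeded Mdh2 by 0.16 ± 0.28, so a difference between the compartments was not detectable for this pair. Both stayed above 0 under the 9 alternatives able to move them, Mdh1 between 0.37 and 1.23 and Mdh2 between 0.22 and 1.08. Of all measured genes 14.8% lay at or above Mdh1 in the main setting, and 25.9% at or above Mdh2.

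The carriers of the malate-aspartate shuttle did not lie together. Slc25a12 (aralar) and Slc25a13 (citrin) are the calcium-regulated exchangers that send aspartate out of the mitochondrion for glutamate and a proton, a step driven by the membrane potential. The Slc25a12 probe gave 1889 ± 189 units with SoNar-high and 1319 ± 132 with SoNar-low cells, a scaled difference of 0.72 ± 0.20 (1.65-fold), the second highest of the 10. It ran from 0.39, with loess, to 1.29, with scaling to array medians. Gpd1 was second highest in its place with quantile normalization (0.66 against 0.46), loess (0.49 against 0.39) and the series matrix (0.69 against 0.46), and Mdh1 without the spatial correction (0.69 against 0.65). Slc25a13 gave 893.6 ± 90.1 and 889.6 ± 89.1 units, nearly the same signal, and the scaling alone put its difference at 0.21 ± 0.20, close to the median gene; it ran from -0.09 to 0.77 over the alternatives. The gap between the paralogues was 0.51 ± 0.28 and ran from 0.38 to 0.54 over the 5 alternatives able to move it. For such a gap the same computed values apply, 0.20 from the median spot SD and 0.57 from its 95th percentile over probes. Both are SDs and not a range of gaps. Slc25a11, the carrier that exchanges malate for 2-oxoglutarate, gave 1268 ± 127 units with SoNar-high and 1432 ± 143 with SoNar-low cells. Its difference was 0.03 ± 0.20 after scaling. Without the software's correction for the position of a spot on the slide it was 0.22, the widest such move among the 10, and with loess -0.29, so its direction was not settled.

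**Figure D2:**
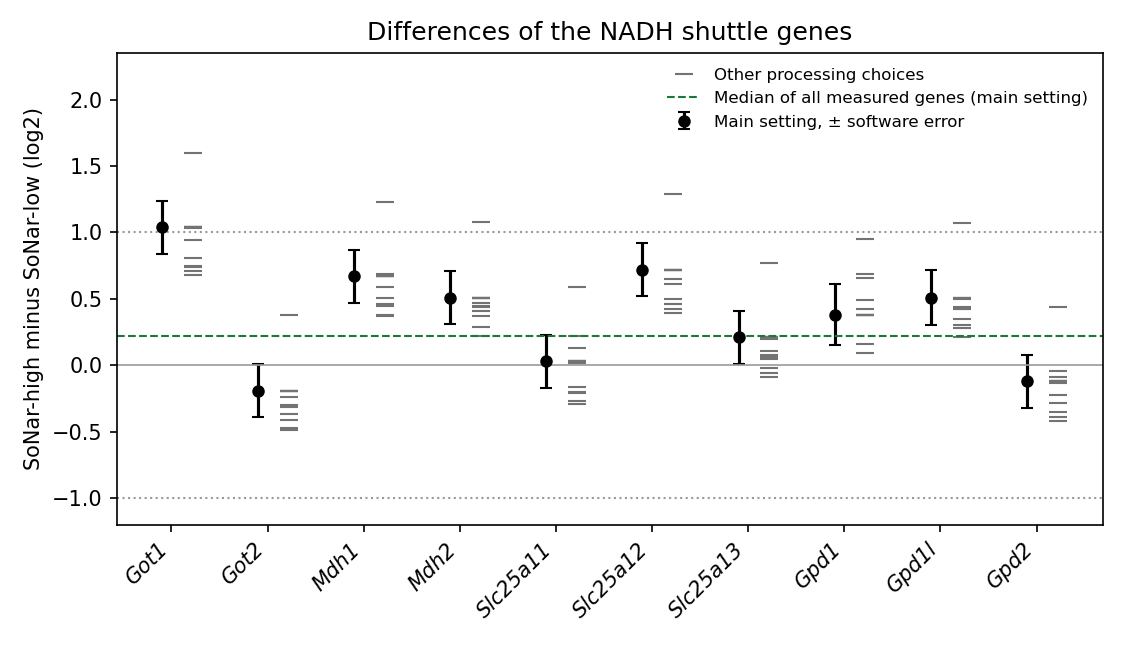
Scaled difference of each shuttle gene (vertical axis, log2, SoNar-high minus SoNar-low); black points are the main setting with the software error, grey dashes the other processing choices, the green dashed line the median of all measured genes (0.22), and dotted lines 2-fold. Got1 is the only black point past 2-fold, while the highest dash of each gene, from scaling to array medians, lies about 0.57 above its point.

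Of the glycerol phosphate shuttle, both genes for the cytosolic step leaned to the SoNar-high array and the gene for the mitochondrial step did not. Gpd1, the NAD-dependent glycerol 3-phosphate dehydrogenase of fat, muscle and brain, gave 164 ± 19.1 units with SoNar-high and 144.5 ± 15.0 with SoNar-low cells. These signals were 3.53 and 7.34 times the lowest signal well above background on their array. Its difference was 0.38 ± 0.23. Gpd1l, a related NAD-dependent dehydrogenase, gave 681 ± 69.0 and 551 ± 55.3 units and a difference of 0.51 ± 0.21, or 1.42-fold. Gpd2, the flavin-linked enzyme of the inner membrane, gave 778 ± 78.4 units with SoNar-high and 974 ± 97.5 with SoNar-low cells, and its difference was -0.12 ± 0.20, which turned to 0.44 with scaling to array medians. Gpd1l exceeded Gpd2 by 0.63 ± 0.29 and Gpd1 exceeded it by 0.50 ± 0.30, while Gpd1l and Gpd1 were 0.12 ± 0.31 apart. Both gaps to Gpd2 stayed above 0 in the 5 alternatives able to move them, from 0.44 to 0.70 for Gpd1l and from 0.45 to 0.94 for Gpd1. The order of Gpd1l and Gpd1 was not settled: their gap ran from -0.27, in the series matrix, to 0.02 in those 5, above 0 in 1 of them. The Gpd1 value itself ran from 0.09, with the 75th percentile of probes detected on both arrays, to 0.95, with scaling to array medians.

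Set side by side by compartment, the 4 cytosolic enzymes (Got1, Mdh1, Gpd1l and Gpd1) ran from 0.38 to 1.04, with a median of 0.59, and all stood above the median gene. The 3 mitochondrial enzymes (Mdh2, Gpd2 and Got2) ran from -0.19 to 0.51, with a median of -0.12 that turns positive with scaling to array medians, and the 3 carriers from 0.03 to 0.72, with a median of 0.21. Mdh2 lay inside the range of the cytosolic enzymes, so the groups overlapped. The grouping was laid over values already known and is a description of 1 array against 1; in all, 6 gaps between members were computed. Of the 10 differences, 5 exceeded 2 software errors: Got1, Slc25a12, Mdh1, Mdh2 and Gpd1l, all higher on the SoNar-high array. The share of all genes past 2 errors was not computed, so this count cannot be set against a background. By size alone, 26.5% of all measured genes lay at or above Gpd1l, the lowest of the 5. How many shuttle genes exceeded 2 errors also rests on the scaling. With the 75th percentile over probes detected on both arrays 4 did (Got1 and Slc25a12 higher, Got2 and Gpd2 lower), after centring on the median gene 4 (Got1, Slc25a12 and Mdh1 higher, Got2 lower), with loess 3 (Got1 and Gpd1 higher, Got2 lower), and with scaling to array medians 9, all higher.

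**Figure D3:**
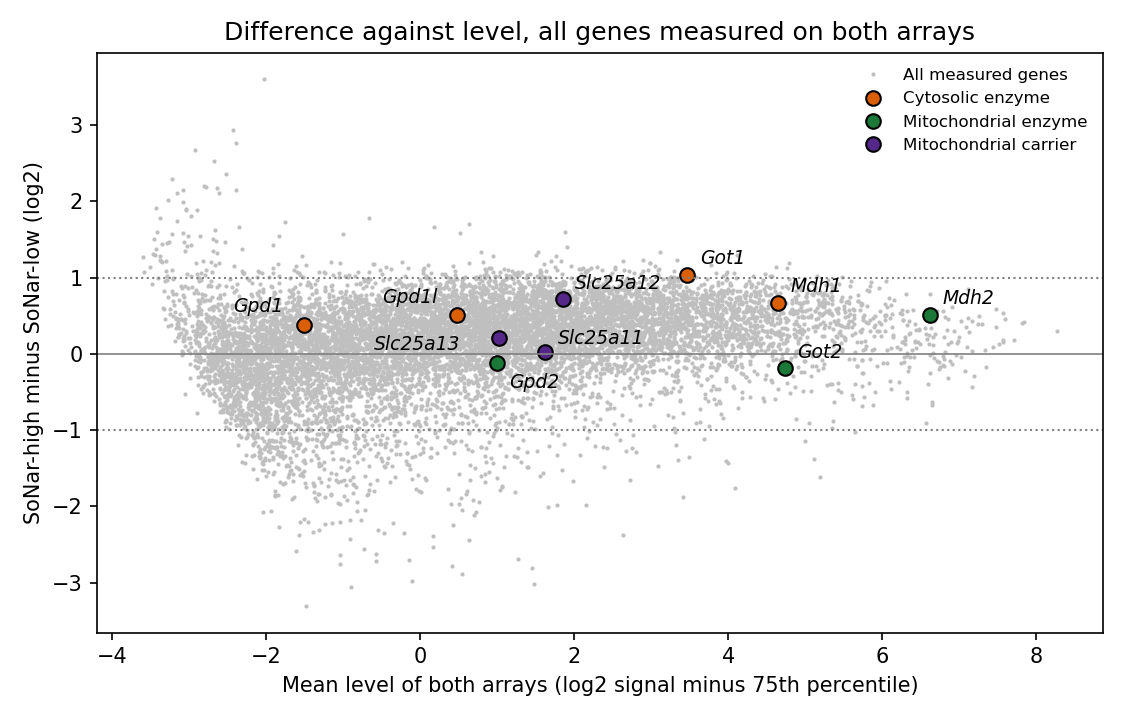
Difference (vertical axis, log2, SoNar-high minus SoNar-low) against the mean level of both arrays (horizontal axis, log2 signal minus the array's 75th percentile) for the 10521 measured genes in grey, with the cytosolic enzymes in orange, the mitochondrial enzymes in green and the carriers in purple; dotted lines mark 2-fold. Got1 (1.04) lies at the upper edge of the cloud at its level, and 77.4% and 73.7% of all measured genes lie at or above Got2 (-0.19) and Gpd2 (-0.12).

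Genes that share metabolites with the shuttles were compared as 3 lists. Of 23 genes of malate, aspartate and glutamate metabolism 17 were measured on both arrays, and 0 were at least 2-fold higher or lower. Of the 6 others 5 were detected on the SoNar-low array only; with no filter on dim probes 1 gene was 2-fold lower (Gls2), and with scaling to array medians 3 were 2-fold higher. Their median of 0.26 was that of the median gene (0.22) to within 0.04. Highest were Slc25a22, a mitochondrial glutamate carrier (0.97; 1211 and 713 units, SoNar-high first), and Fh1, the fumarase that makes malate (0.70). Lowest were the alanine aminotransferase gene Gpt (-0.43) and the second glutamate carrier gene Slc25a18 (-0.26). Me2, a mitochondrial malic enzyme, was at 0.48 and pyruvate carboxylase, Pcx, which makes oxaloacetate, at -0.23. The 2 probes of the glutamate dehydrogenase gene Glud1 disagreed, at 0.60 and -0.18. The cytosolic malic enzyme gene Me1 was not detected above background with any of its 3 probes. The dicarboxylate carrier gene Slc25a10 was detected on the SoNar-low array alone, where its probe gave 37.8 units (26.6 on the other array, under the lowest signal called there).

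On the glycerol 3-phosphate side 14 of 19 genes were measured, 1 was at least 2-fold higher and 0 were lower, with a median of 0.27. The higher count was 5 with scaling to array medians, 2 in the series matrix and 0 over the brighter 50% of probes; with no filter on dim probes 2 were higher and 1 lower. The 1 was Aldoc, the brain aldolase, whose products include dihydroxyacetone phosphate (1.78; 477 units with SoNar-high and 160 with SoNar-low cells). Neuron and glia markers were higher on the same array, and their part in the Aldoc value was not tested. Aqp3, a water and glycerol channel, was at 0.79. Tpi1, the isomerase that links dihydroxyacetone phosphate to the rest of glycolysis, was at 0.24 with probes at 0.07 and 0.42, and the lowest were the acyltransferase gene Gpam (0.11) and the phosphatase gene Pgp (0.02). Among cytosolic makers and users of NADH 15 of 19 genes were measured and 0 passed 2-fold, with a median of 0.18. With scaling to array medians 6 were higher, and with quantile normalization, the series matrix or no spatial correction 1. With no filter on dim probes 3 were lower, and with the 75th percentile over detected probes or the negative control call 1. Gapdh, the glycolytic step that makes NADH, was at 0.11 over 7 probes from -0.25 to 0.54. The lactate dehydrogenase genes lay apart, Ldha at -0.17 over 3 probes from -0.55 to 0.17 and Ldhb at 0.78 by 1 probe. Ugdh, which makes NADH while oxidising UDP-glucose, was highest at 0.99, and the cytochrome b5 reductase gene Cyb5r3 lowest at -0.73. Probes of one gene could lie well apart, as those of Glud1, Gapdh and Ldha did, and each shuttle gene rests on 1 probe.

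**Figure D4:**
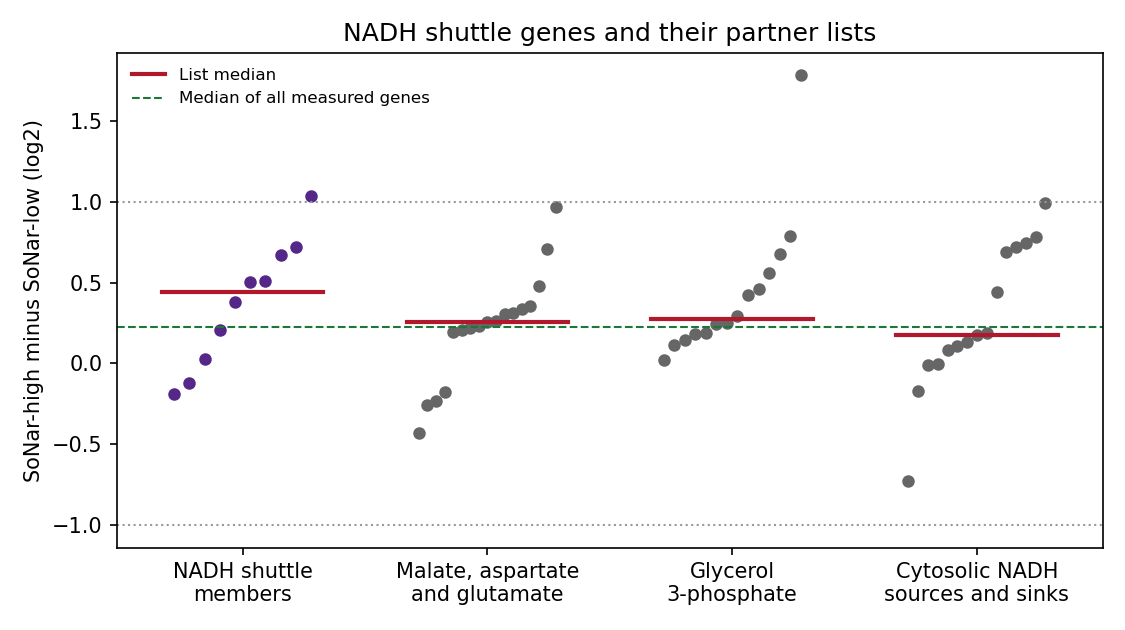
Scaled difference (vertical axis, log2, SoNar-high minus SoNar-low) of each measured gene in the shuttle list (purple, 10 genes) and the 3 partner lists (grey; 17, 14 and 15 genes), sorted within a list; red bars are list medians (0.44, 0.26, 0.27 and 0.18), the green dashed line the median of all measured genes (0.22) and dotted lines 2-fold. Under this scaling Got1 and Aldoc are the only plotted genes past 2-fold.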

How the data were processed

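Per the labels, Cy3-labelled RNA of each population went to 1 array. The deposited scanner files hold intensity values per spot, not scaled between arrays, extracted with Agilent Feature Extraction 11.0.1.1 per the file headers (9.1 per the submitters' processing notes). The authors' deposited series matrix, an alternative here, gives log2 values with a median of 5.90 on both arrays. Within each array these keep the rank order of the scanner signals (Spearman's rho at least 0.9998). The difference between the arrays followed that of the scanner files less closely, with r = 0.85 across probes. Slc25a11 was at -0.16 in the series matrix and at 0.03 in the main setting. The centring of the series matrix is not given in the sources used here.

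Control spots and spots with outlier flags were left out, and spots of a probe were averaged (39085 probes). A probe with several spots counted as well above background where at least 50% of them were. This rule was set with the earlier gene count known, because it matched that count; more than 50% gave 10517 genes with 253 higher and 461 lower, and changed 0 shuttle genes. Probes were named by unversioned RefSeq accession (27115 probes, 20618 genes; GRCm38.p6 table), and windows of 250 bases came from RefSeq promoters of that build. The array design names another build, so the only coordinates given are those of these windows and of matches in them. Differences of a gene's probes were averaged, where both arrays detected the probe; a call was a fold of at least 2, with no p-value. Members and gene lists were chosen with earlier results of these data known. The text names every member, of each partner list the 2 highest and 2 lowest genes, and Gapdh, Ldha, Ldhb, Me1, Me2, Pcx, Glud1, Tpi1 and Slc25a10; other genes serve as checks of cell type, of which 1 is not reported here by name. The computation of fold differences was tested on simulated data with known changes. Python 3.11.15, numpy 2.4.6, pandas 2.3.3, statsmodels 0.14.6, matplotlib 3.10.9, R 4.3.3 and limma 3.58.1 were used.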

Additional observations from a re-analysis of the deposited data

How the results depend on the processing

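Scaling decided how many genes passed 2-fold. Counts over all genes are given as higher then lower on the SoNar-high array, against 253 and 462. Normexp on the median spot signal (offset 50) gave 72 and 241, scaling to array medians 3380 and 140, the 75th percentile of probes detected on both arrays 61 and 853, loess (span 0.3) 118 higher, no filter on dim probes 1885 and 2542, the brighter 50% of probes 141 and 103, the series matrix 430 higher, a background call at 3 SD of negative controls 1080 lower, a 1.5-fold limit 2145 and 1070, a 3-fold limit 31 and 133, and subtraction of the median gene 70 and 742. Higher calls were 35.4% of all in the main setting, and 6.67% to 96.0% under other scalings. Got1, the 1 shuttle gene past 2-fold, was not past it with normexp, loess, quantile normalization, the series matrix, the 75th percentile over detected probes or centring (0 genes each), nor at 3-fold (0). At 1.5-fold 3 were past it, and with median scaling 5. The median of the shuttle genes was 1.01 with median scaling, 0.15 with the 75th percentile over detected probes and 0.22 after centring. These scalings moved the median gene by 0.57, -0.30 and -0.22, which accounts for the moves. The medians of the malate, glycerol 3-phosphate and cytosolic NADH lists were 0.82, 0.84 and 0.74 with median scaling, -0.04, -0.02 and -0.12 with the 75th percentile over detected probes, and 0.04, 0.05 and -0.05 after centring; with loess the first 2 were 0.07 and 0.11. Centring, the omission of the spatial correction and the rule of over 50% of spots were chosen after seeing the data. Keeping outlier spots and taking the brightest probe left each of these results within 1.5 times or within the spot error. No paired analysis was possible because each population has 1 array.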
